A study of Rattus norvegicus with 8 samples.

Results

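Mitochondrial ribosomal protein genes were taken as all probes that were not controls and whose gene name in the array files began with Mrpl or Mrps followed by a number. The rule found 90 probes in 106 spots, which stood for 70 genes out of 36306 on the array, 41 named for the large subunit and 29 for the small subunit. The genes were measured in NR8383 cells, a macrophage line established from the lung lavage of a normal rat, that had been exposed for 4 h to NM401 at 0.17 µg/mL or had been kept without it (control, 0 µg/mL). NM401 is a multi-walled carbon nanotube used as a representative test material. Both groups were incubated without fetal bovine serum, and each had 4 biological replicates of this 1 cell line. Total RNA was hybridised as Cy3-labelled cRNA to 1-colour Agilent arrays, 1 array per replicate.

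Mitochondria make the membrane-embedded core subunits of the respiratory chain on ribosomes of their own. The RNA of these ribosomes is encoded by mitochondrial DNA, whereas their proteins are encoded in the nucleus, made in the cytosol and imported, so that both subunits are assembled from products of separate genomes. The large subunit joins amino acids and guides the new chain to the inner membrane, and the small subunit reads the messenger RNA. Some of the proteins have bacterial counterparts and share their numbers, and others were added in the evolution of eukaryotes. In macrophages, activity of the respiratory chain is also known as a source of signals in inflammatory activation.

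All values are log2 processed signals minus the 75th percentile of the same array, so that a value of 0 means a signal at that percentile. That percentile was 2692 ± 172 on NM401 arrays and 1236 ± 224 on control arrays (SD, n = 4 each), and 55.4 ± 1.82% of spots on NM401 arrays were well above background, against 54.1 ± 2.12% on control arrays. After the scaling, spike-in RNAs of the kit averaged 0.90 ± 0.21 on NM401 arrays and 3.19 ± 0.48 on control arrays. All differences below are therefore relative to the other probes of an array, and no statement on RNA per cell can be made. NM401 replicates 2 to 4 shared 1 slide, and the slide of NM401 replicate 1 also carried the 4 controls. All NM401 arrays were in row 2 and all control arrays in row 1 of their slide, so row and exposure cannot be told apart. Of 12 macrophage markers, 10 were above background on all 8 arrays and Marco and Cd163 on none. Their summed signal, relative to the 75th percentile, was 127 to 134 on NM401 arrays and 141 to 149 on control arrays. The brightest markers weigh most in such a sum, and the macrophage markers did not fall as a set. Of the 10 tested, limma called 2 higher and 3 lower at an adjusted p below 0.05, with a median log2 fold change of -0.04. Spi1 (0.56) and Fcgr1a (0.36) were higher, and Mrc1 (-0.59), Cd68 (-0.36) and Lyz2 (-0.16) were lower. No marker of epithelium (7) or lymphocytes (4 on the array) was above background on all arrays, and Epcam, Cdh1 and Cd3e were above it on none. The markers of fibroblasts and endothelium summed to 0.549 to 0.669 on NM401 arrays and 0.671 to 0.743 on control arrays, with 2 of 6 above background on all arrays. Neutrophil markers summed to 0.0223 to 0.0326 on NM401 arrays and 0.0719 to 0.0977 on control arrays, with none of 5 above background on all arrays. The part of these shifts in the results below was not tested.

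The mitochondrial ribosomal protein genes were broadly detected: 68 of the 69 genes tested were above background on all 8 arrays (98.6%), against 87.5% of all 17444 genes tested, and none of their probes was saturated. Mrps28 was the one gene with no probe tested. Its probe was above background on 1 NM401 array and on 0 control arrays. Of the 69 genes, 13 were higher in NM401 cells, 28 were lower and 28 were not called by limma at an adjusted p below 0.05. Over all genes, 21.9% were called higher and 35.4% lower, against 18.8% and 40.6% of the mitochondrial ribosomal protein genes, so both shares lay near those of all genes. Differences were small: 1 gene was called and at least 1.5-fold higher (all genes, 7.05%) and 2 were called and at least 1.5-fold lower (all genes, 15.2%). In bulk RNA, fewer cells of a type and less RNA per cell cannot be told apart. The 4 NM401 and 4 control values did not overlap for 42 of the 69 genes, where 53.2% of all genes had no overlap. Among called members only Mrps30 had overlapping groups, and Mrps12 and Mrps26 were not called although theirs did not overlap.

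**Figure D1:**
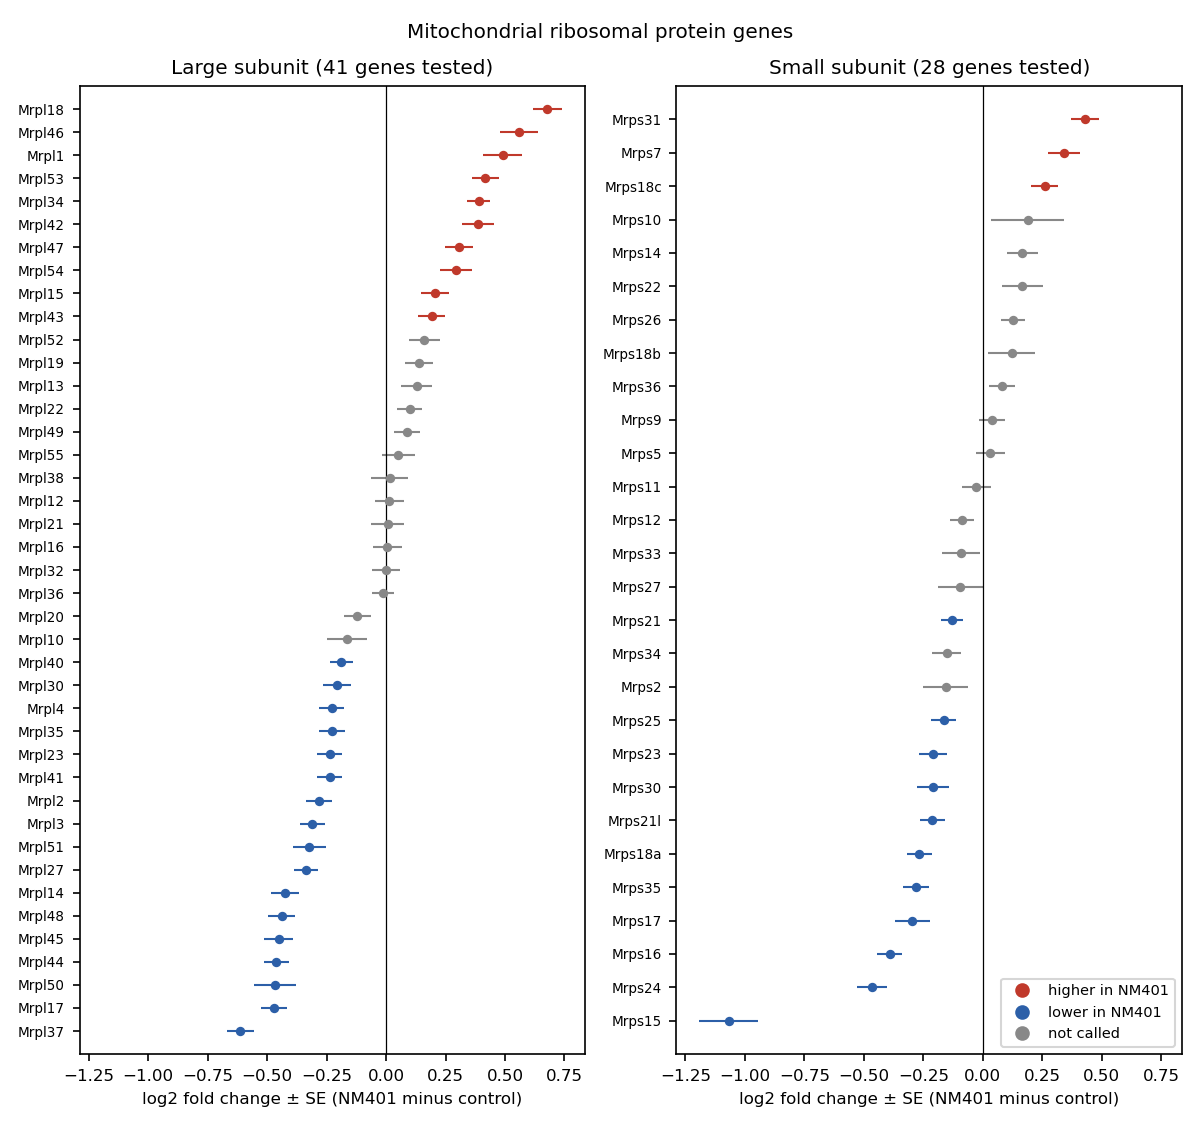
Log2 fold change (NM401 minus control, x axis) with its standard error for each mitochondrial ribosomal protein gene, by subunit; colours mark genes called higher, called lower or not called by limma. The 41 large subunit genes run from -0.61 (Mrpl37) to 0.68 (Mrpl18), and the 28 small subunit genes from -1.07 (Mrps15) to 0.43 (Mrps31).

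The large and the small subunit both held genes that went up and genes that went down. In the large subunit 10 genes were called higher, 17 lower and 14 neither way, with a median log2 fold change of -0.00052. In the small subunit 3 were called higher, 11 lower and 14 neither way, with a median of -0.09. The median of all genes was -0.10. On each array, the median deviation of the large subunit genes from their control means was -0.04 to -0.0046 for NM401 and -0.06 to 0.04 for control arrays, and that of the small subunit genes was -0.12 to -0.05 for NM401 and -0.06 to 0.04 for control arrays. The NM401 range of the large subunit lay within that of the control arrays, and the NM401 range of the small subunit reached below it. The same deviation over all genes tested was -0.10 to -0.08 on NM401 arrays and -0.0086 to 0.019 on control arrays. All genes thus also lay below the control range. In the known structure of the mammalian ribosome, Mrps30 and Mrps18a sit in the large subunit and Mrps36, which RefSeq lists as Kgd4, belongs to the alpha-ketoglutarate dehydrogenase complex. Moved accordingly, 10 of 43 large subunit genes were higher and 19 lower, and 3 of 25 small subunit genes were higher and 9 lower. Genes numbered like their bacterial counterparts (Mrpl up to 36, Mrps up to 21) had 6 of 39 higher and 15 lower, with a median of -0.03, and those with higher numbers had 7 of 30 higher and 13 lower, with a median of -0.09.

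The scaling of the arrays set the balance of directions. With scaling to the median of each array the median of all genes became 0.11, and 27 members (39.1%) were called higher and 9 (13.0%) lower, where 35.0% of all genes were called higher and 19.3% lower. With quantile normalisation the median of all genes became -0.01, and 18 members (26.1%) were called higher and 23 (33.3%) lower, where 27.4% of all genes were called higher and 27.9% lower. Relative to all genes, the members' median was 0.01 with the 75th percentile, 0.02 with quantile normalisation and 0.01 with median scaling. It was 0.14 with normexp background correction and 0.13 with the deposited series values, where the medians of all genes were -0.24 and -0.21. Normexp correction called 13 members higher and 30 lower, where 15.7% of all genes were called higher and 53.9% lower. Over these 5 settings 9 of the 28 lower genes were called lower in all, 11 of the 13 higher genes were called higher in all, and 0 were called in both directions. The sign was the same in all 5 for 51 of the 69 members and changed for 18. The 9 lower ones were Mrps15, Mrpl37, Mrpl17, Mrpl50, Mrps24, Mrpl44, Mrpl45, Mrpl48 and Mrpl14. The 11 higher ones were Mrpl18, Mrpl46, Mrpl1, Mrps31, Mrpl53, Mrpl34, Mrpl42, Mrps7, Mrpl54, Mrps18c and Mrpl15. With slide as a term of the fit, 16 of the 28 lower and 8 of the 13 higher genes were still called, where 20.2% of all genes were called lower and 12.7% higher. This estimate compares NM401 replicate 1 alone with the controls of its slide. Fitted on that slide only, 3 members were called higher (all genes, 4.33%) and 1 lower (all genes, 7.8%).

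**Figure D2:**
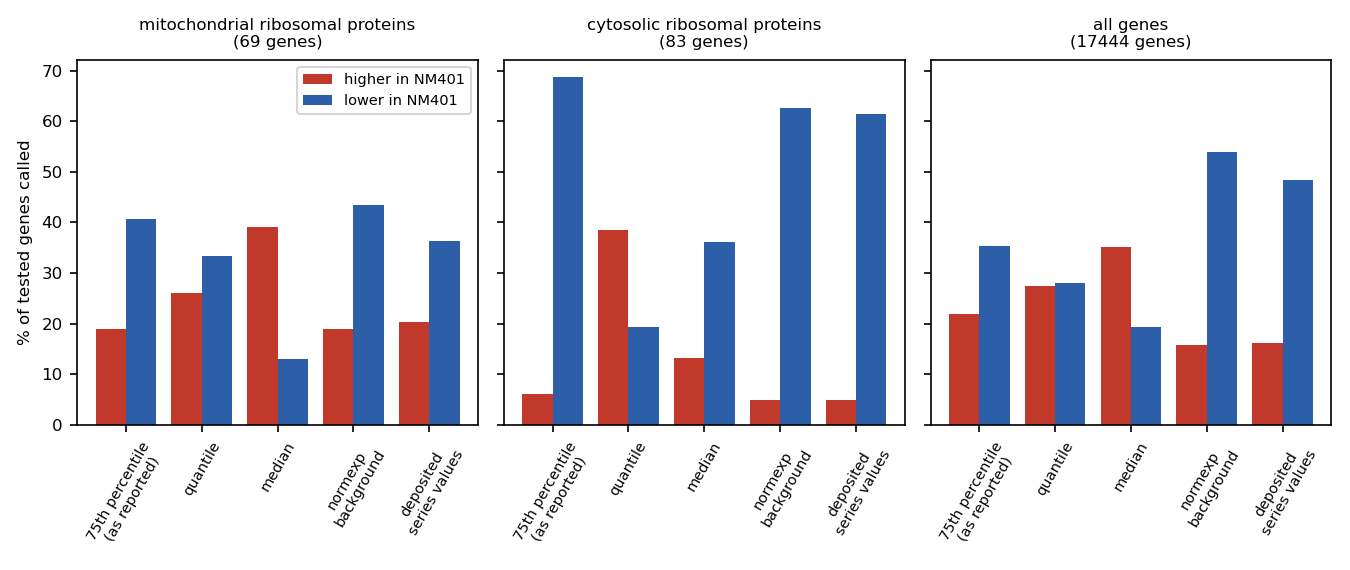
Percentage of tested genes called higher or lower in NM401 (y axis) under 5 scalings and background corrections (x axis), for mitochondrial ribosomal proteins, cytosolic ribosomal proteins and all genes. With median scaling 27 of 69 mitochondrial ribosomal protein genes were called higher and 9 lower, against 13 higher and 28 lower with the 75th percentile.

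The gene with the largest difference among all members was Mrps15, whose protein has a bacterial counterpart that binds the small subunit RNA early in assembly. Its signal was -1.17, -1.28, -1.54 and -1.43 on the NM401 arrays, against -0.47, -0.47, -0.10 and -0.11 on the control arrays, and the groups did not overlap. The log2 fold change was -1.07 (SE 0.12, limma adjusted p = 0.000269), which is 2.1-fold lower. The probe for Mrps15 is 1 of 3 member probes whose sequence recurred in RefSeq promoters of other genes, the only sequences searched. At least 24 of the 30 bases at either end of it were found in promoters of 35 other genes, out of 27456 promoters searched on both strands. The same count was 93 for the Mrpl10 probe and 24 for the brighter Mrpl17 probe, at most 1 for each other member probe, and 0 for 84 of the 90 probes. Interspersed repeats, the copies of mobile elements scattered through rodent genomes, give matches of this kind. The 4 other tested probes on the array with a near copy of the Mrps15 probe, all of other genes, were called lower (-1.04 to -0.46). Of all genes, 35.4% were called lower. The 1 such probe for Mrpl10 was lower at -0.57 while Mrpl10 was not called, and the brighter Mrpl17 probe had 0 such probes. Whether near copies bear on these calls was not tested. Signal from Mrps15 transcripts and from other RNAs with a near copy of the probe cannot be told apart here. The probes are shown because the call for Mrps15 rests on the first of them and that for Mrpl17 on the second, and they are given in lower case with nothing marked. The third is the other Mrpl17 probe, which matched no promoter of another gene. The position given for the brighter Mrpl17 probe spans fewer bases than its printed sequence, so it does not place the whole probe.
Mrps15 probe, chr5:145408255-145408314 (rn4, plus strand): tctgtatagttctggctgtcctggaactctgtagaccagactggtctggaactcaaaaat
Mrpl17 brighter probe, chr1:163554751-163554800 (rn4, minus strand): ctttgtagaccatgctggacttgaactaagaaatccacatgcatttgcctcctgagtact
Mrpl17 dimmer probe, chr1:163555095-163555154 (rn4, minus strand): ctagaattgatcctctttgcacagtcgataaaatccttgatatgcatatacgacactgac

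Among large subunit genes, the fall was led by Mrpl37, Mrpl17, Mrpl50, Mrpl44, Mrpl45 and Mrpl48. Mrpl37, one of the proteins with no bacterial counterpart, had a signal of 2.77, 2.91, 2.82 and 2.86 on the NM401 arrays, against 3.40, 3.40, 3.49 and 3.52 on the control arrays. Its groups did not overlap, and its log2 fold change was -0.61 (SE 0.06, limma adjusted p = 0.000115), which is 1.53-fold lower. Mrpl17 belongs to the bacterial core of the subunit near the exit of the new chain. Its brighter probe gave 3.20, 3.21, 3.14 and 3.18 on the NM401 arrays, against 3.57, 3.64, 3.74 and 3.67 on the control arrays, a log2 fold change of -0.47 (SE 0.05, limma adjusted p = 0.000258). The dimmer Mrpl17 probe, the one without near copies, was not called, with a log2 fold change of 0.05 (SE 0.07, limma adjusted p = 0.568), so the fall of Mrpl17 was seen on 1 of its 2 probes.

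Mrpl44, a protein with a fold like that of ribonuclease III and a gene mutated in human infantile cardiomyopathy, had a signal of 1.09, 1.08, 0.97 and 0.99 on the NM401 arrays, against 1.46, 1.53, 1.54 and 1.45 on the control arrays. The log2 fold change was -0.46 (SE 0.05, limma adjusted p = 0.000286). Mrpl45 lies at the tunnel exit and tethers the ribosome to the inner membrane. Its signal was 2.54, 2.43, 2.31 and 2.46 on the NM401 arrays, against 2.82, 2.87, 2.93 and 2.92 on the control arrays, and both of its probes were called lower (log2 fold changes of -0.45 and -0.41). Mrpl48 and Mrpl50, 2 proteins with no bacterial counterpart, had log2 fold changes of -0.44 (SE 0.06) and -0.47 (SE 0.09). Mrpl50 varied most among these 6: it gave -0.99, -0.92, -1.16 and -1.11 on the NM401 arrays, against -0.76, -0.50, -0.62 and -0.43 on the control arrays. With slide as a term, 5 of the 6 were still called (limma adjusted p = 0.00376 to 0.0251) and Mrpl50 was not (limma adjusted p = 0.0676). The other 11 lower genes of the large subunit had log2 fold changes between -0.43 (Mrpl14) and -0.19 (Mrpl40).

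Among the genes named for the small subunit, Mrps24, Mrps16, Mrps17, Mrps35 and Mrps18a followed Mrps15, although the Mrps18a protein sits in the large subunit. Mrps24, the counterpart of a bacterial protein at the entry of the messenger RNA, had a signal of 1.45, 1.53, 1.57 and 1.52 on the NM401 arrays, against 1.91, 1.92, 1.98 and 2.12 on the control arrays. The groups lay apart by more than their spread, and the log2 fold change was -0.46 (SE 0.06, limma adjusted p = 0.00057). Mrps16, whose gene is mutated in a human disorder of mitochondrial translation, had a signal of 2.85, 2.80, 2.77 and 2.72 on the NM401 arrays, against 3.11, 3.20, 3.22 and 3.18 on the control arrays. Its log2 fold change was -0.39 (SE 0.05, limma adjusted p = 0.000545). Mrps35, a protein of the small subunit with no bacterial counterpart, fell on both of its probes, with log2 fold changes of -0.28 (SE 0.05) on the brighter and -0.62 (SE 0.14) on the dimmer. Mrps17 and Mrps18a had log2 fold changes of -0.30 (SE 0.08) and -0.27 (SE 0.05). Mrps16, Mrps17, Mrps18a and Mrps35 were not called with median scaling, where their log2 fold changes were -0.19, -0.09, -0.06 and -0.08. Mrps17 was also not called with slide as a term, at -0.12 (limma adjusted p = 0.34).

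The genes that rose were led by Mrpl18, whose protein sits in the central protuberance of the large subunit. Its signal was 1.32, 1.26, 1.18 and 1.29 on the NM401 arrays, against 0.57, 0.64, 0.66 and 0.47 on the control arrays. Every NM401 array lay above every control array, and the log2 fold change was 0.68 (SE 0.06, limma adjusted p = 0.000117), which is 1.6-fold higher. Mrpl46, another protein of the central protuberance, gave -0.01, 0.03, -0.02 and 0.01 on the NM401 arrays, against -0.66, -0.56, -0.33 and -0.66 on the control arrays. Its log2 fold change was 0.56 (SE 0.08, limma adjusted p = 0.000707). Mrpl1, which forms the mobile stalk past which used transfer RNA leaves, rose on both of its probes, with log2 fold changes of 0.49 (SE 0.08) and 0.43 (SE 0.09). Its brighter probe gave 0.26, 0.35, 0.29 and 0.34 on the NM401 arrays, against -0.16, -0.15, -0.01 and -0.39 on the control arrays.

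Mrpl53, Mrpl34 and Mrpl42 completed the 6 largest rises of the large subunit. Mrpl34 is a short protein of bacterial type, and Mrpl53 and Mrpl42 have no bacterial counterpart. Mrpl53 had a signal of 2.74, 2.61, 2.62 and 2.59 on the NM401 arrays, against 2.15, 2.22, 2.28 and 2.25 on the control arrays, a log2 fold change of 0.42 (SE 0.06, limma adjusted p = 0.000585). Mrpl34 and Mrpl42 each had a log2 fold change of 0.39 (SE 0.05 and 0.07). In the small subunit, Mrps31, Mrps7 and Mrps18c were the only genes called higher with the 75th percentile as the scale, while quantile normalisation called 5 and median scaling 9. Mrps31, a protein with no bacterial counterpart, had a signal of 0.89, 0.69, 0.71 and 0.75 on the NM401 arrays, against 0.31, 0.36, 0.29 and 0.37 on the control arrays. Its log2 fold change was 0.43 (SE 0.06, limma adjusted p = 0.000627). Mrps7, which binds the small subunit RNA near the decoding site, had a log2 fold change of 0.34 (SE 0.07), and Mrps18c, 1 of 3 genes for variants of a bacterial protein, had 0.26 (SE 0.06). Mrps7 was not called with slide as a term (limma adjusted p = 0.105). Of the other variants, Mrps18a was lower and Mrps18b, at 0.12, was not called. The remaining 4 higher genes, Mrpl47, Mrpl54, Mrpl15 and Mrpl43, had log2 fold changes of 0.19 to 0.31.

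**Figure D3:**
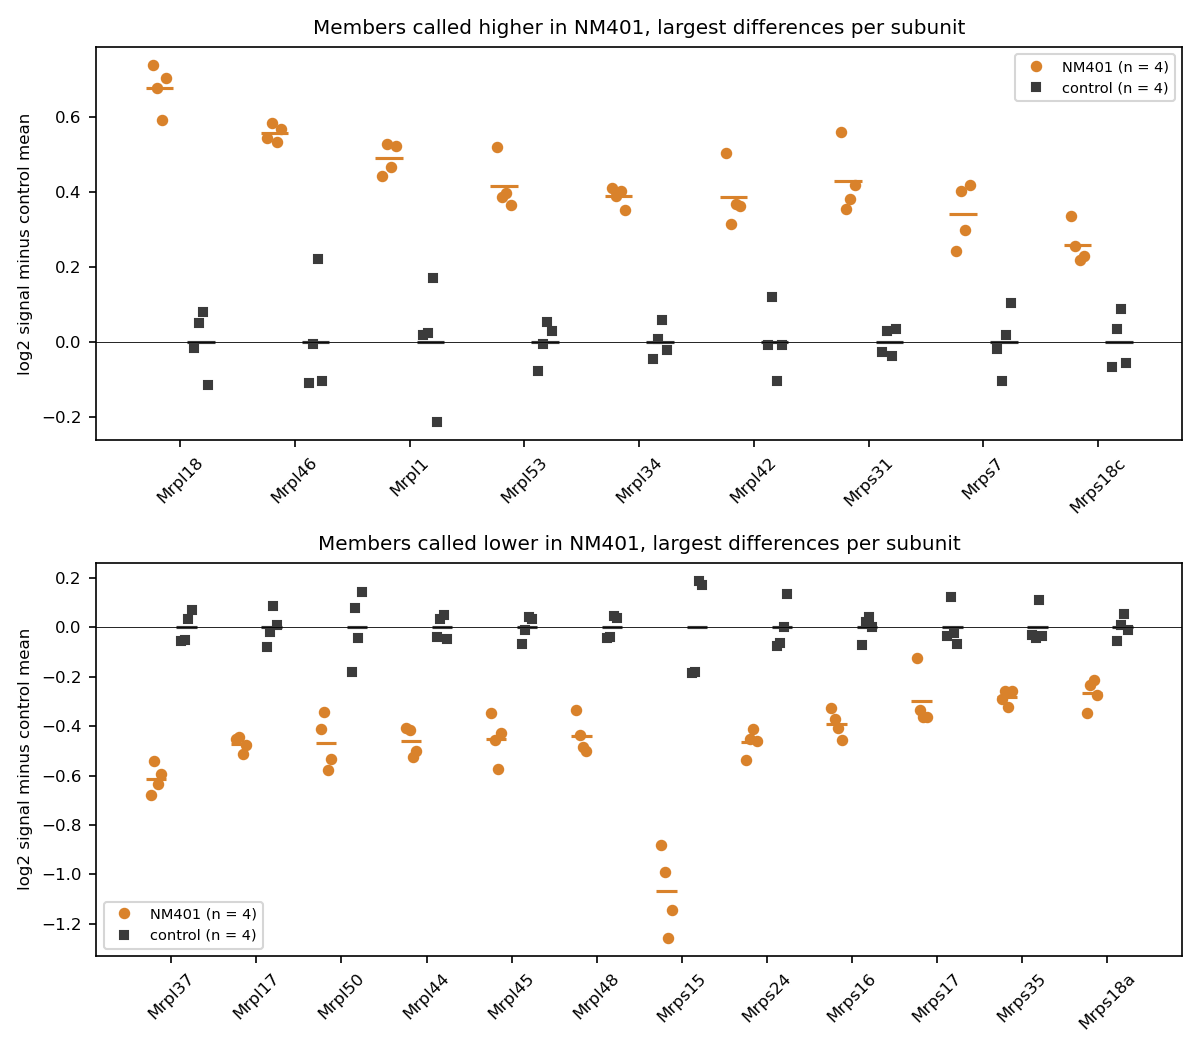
Log2 signal minus the control mean (y axis) on each NM401 and control array for the members with the largest called differences per subunit (x axis), with group means as lines; upper panel, genes called higher, lower panel, genes called lower. In all 21 genes the 4 NM401 and 4 control values do not overlap, and the spread within groups is widest for Mrps15.

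Other members had differences close to 0. Mrpl32, which is cut by the m-AAA protease of the inner membrane before it joins the ribosome, gave 1.71, 1.67, 1.71 and 1.72 on the NM401 arrays, against 1.71, 1.63, 1.83 and 1.64 on the control arrays, a log2 fold change of -0.0005 (SE 0.06). Mrpl16 and Mrpl21 had log2 fold changes of 0.01, and Mrps5 and Mrps9 of 0.03 and 0.04, each with an SE of 0.05 to 0.07. With median scaling Mrps9 was called higher at 0.24. Mrps11 was at -0.03 (SE 0.06) on its brighter probe and called lower on its dimmer one, at -0.36 (SE 0.07, limma adjusted p = 0.00246).

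Of the 14 genes with several tested probes, 0 had probes called in opposite directions. The widest gap without such a conflict was that of Mrpl47, where the brighter probe was called higher at 0.31 (SE 0.06, limma adjusted p = 0.00311) and the dimmer one, above background on 3 arrays of each group, had a log2 fold change of -0.47 (SE 0.48, limma adjusted p = 0.429). Both probes are shown because they read separate stretches of the transcript: the brighter one spans positions on both sides of an intron, and the dimmer one lies within 1 stretch. They are in lower case with nothing marked.
Mrpl47 brighter probe, chr2:118940940-118942962 (rn4, minus strand): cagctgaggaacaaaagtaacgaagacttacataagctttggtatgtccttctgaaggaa
Mrpl47 dimmer probe, chr2:118935035-118935094 (rn4, minus strand): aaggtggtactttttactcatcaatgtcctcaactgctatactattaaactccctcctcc

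Promoters were read from RefSeq (GRCr8, 250 bases before to 50 after the annotated start) and matched 54 of the 70 genes. The motifs searched on both strands were GCGC, any base and TGCGC in a row for nuclear respiratory factor Nrf1, CCGGAAG for ETS factors such as Gabpa, ATGGCGGC for Yy1, CACGTG for E-box factors such as Myc, and TATAAA for the TATA box. None of these words contains another, and the letters for Yy1 include ATG, so they can coincide with a start codon. The ETS letters were in 33.3% of the members' promoters, against 9.22% of all 27456 promoters of the same length. The Yy1 letters were in 22.2% and 2.76%, the Nrf1 letters in 14.8% and 4.71%, the E-box letters in 11.1% and 6.65%, and the TATA box letters in 13.0% and 14.3%. The median GC content was 56.0% in members and 52.3% in all promoters, and its part in these shares was not tested.

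By call, the Nrf1 letters stood in 0 of 11 promoters of higher genes, 5 of 24 of lower genes and 3 of 19 of genes not called. The ETS letters stood in 3, 8 and 7 of them and the Yy1 letters in 4, 4 and 4. These counts are descriptions, and a match is not evidence of binding. The promoters below are shown because they carry the letters in genes with some of the largest differences: Mrpl17, Mrpl44 and Mrpl45 (lower) the Nrf1 letters, Mrpl37 (lower) and Mrpl46 (higher) the Yy1 letters, and Mrpl53 (higher) both the ETS and the Yy1 letters. Mrpl17 was called lower on only 1 of its 2 probes, the one with near copies elsewhere. Capitals mark every match, on either strand, to any of the 5 motifs. In Mrpl44 and Mrpl46 the capitals also hold the TATA box letters read on the other strand (TTTATA).
Mrpl17, chr1:169575650-169575949, minus strand: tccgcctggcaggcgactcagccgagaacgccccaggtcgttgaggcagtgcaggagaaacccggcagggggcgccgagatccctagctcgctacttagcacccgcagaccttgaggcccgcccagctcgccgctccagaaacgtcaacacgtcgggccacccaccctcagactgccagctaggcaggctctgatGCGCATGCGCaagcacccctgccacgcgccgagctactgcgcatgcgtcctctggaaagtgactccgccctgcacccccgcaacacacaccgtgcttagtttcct
Mrpl44, chr9:88554800-88555099, plus strand: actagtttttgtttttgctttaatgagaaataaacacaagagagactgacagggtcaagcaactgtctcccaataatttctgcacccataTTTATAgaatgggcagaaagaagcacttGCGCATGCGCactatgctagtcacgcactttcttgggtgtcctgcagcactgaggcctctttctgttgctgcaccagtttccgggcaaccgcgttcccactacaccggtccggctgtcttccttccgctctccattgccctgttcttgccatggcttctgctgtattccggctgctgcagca
Mrpl45, chr10:82804789-82805088, plus strand: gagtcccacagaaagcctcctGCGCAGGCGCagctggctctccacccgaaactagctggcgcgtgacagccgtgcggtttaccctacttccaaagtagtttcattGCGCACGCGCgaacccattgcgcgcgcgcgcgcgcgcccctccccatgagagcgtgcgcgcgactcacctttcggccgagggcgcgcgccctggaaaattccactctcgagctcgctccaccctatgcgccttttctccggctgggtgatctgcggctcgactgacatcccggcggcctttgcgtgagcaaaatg
Mrpl37, chr5:127074918-127075217, minus strand: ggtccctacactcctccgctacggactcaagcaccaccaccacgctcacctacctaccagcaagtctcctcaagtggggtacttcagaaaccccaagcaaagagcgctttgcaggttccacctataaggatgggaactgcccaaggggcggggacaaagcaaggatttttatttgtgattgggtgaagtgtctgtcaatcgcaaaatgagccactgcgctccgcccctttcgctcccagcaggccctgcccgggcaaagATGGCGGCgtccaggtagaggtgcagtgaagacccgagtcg
Mrpl46, chr1:142116981-142117280, minus strand: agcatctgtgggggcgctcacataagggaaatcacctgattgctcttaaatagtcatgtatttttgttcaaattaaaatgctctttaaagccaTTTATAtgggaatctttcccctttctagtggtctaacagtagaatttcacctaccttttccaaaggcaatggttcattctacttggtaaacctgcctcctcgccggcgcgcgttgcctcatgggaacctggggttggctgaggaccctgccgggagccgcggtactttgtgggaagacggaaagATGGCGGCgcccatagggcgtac
Mrpl53, chr4:117172793-117173092, plus strand: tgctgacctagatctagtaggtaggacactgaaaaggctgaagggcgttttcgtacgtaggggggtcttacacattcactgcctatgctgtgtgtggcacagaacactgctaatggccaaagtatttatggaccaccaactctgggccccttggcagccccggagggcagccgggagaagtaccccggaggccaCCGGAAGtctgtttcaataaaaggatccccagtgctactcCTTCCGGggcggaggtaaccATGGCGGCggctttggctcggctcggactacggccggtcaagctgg

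Many members start near a gene that runs the other way. A start site on the opposite strand, pointing away, lay within 1000 bases for 18 of the 54 members (33.3%), against 10.4% of all promoters. Mrpl46 and Mrps11, of the large and the small subunit, start 234 bases apart, so the Mrpl46 promoter printed above is largely that of Mrps11 read on the other strand. Mrpl46 was higher at 0.56, and Mrps11 was not called at -0.03 and lower on its dimmer probe. With the pair of Mrpl46 and Mrps11 counted once, both genes were tested in 15 pairs and both called in 5, of which 2 went in the same direction and 3 in opposite ones. The opposite ones were Mrpl47 (0.31) with the respiratory complex I gene Ndufb5 (-0.48), Mrpl27 (-0.34) with the DNA repair nuclease gene Eme1 (0.49), and Mrpl30 (-0.21) with Mitd1 (0.75), whose protein acts in cytokinesis. Mrps7 and Gga3, a gene of vesicle sorting, were both higher (0.34 and 0.55), and Mrpl41 and Pnpla7, a lysophospholipase gene, were both lower (-0.24 and -0.50). These 2 pairs start 269 and 996 bases apart, farther than the 250 bases read before each start. The 3 opposite pairs start 44 to 244 bases apart. Mrpl18, the member that rose most, starts 425 bases from the chaperonin gene Tcp1, which was not called at -0.15 (SE 0.06, limma adjusted p = 0.0505).

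Beyond the Mrp names, 7 mitochondrial ribosomal proteins with other names were tested: 1 was higher, 3 lower and 3 not called, with a median of -0.04. Mrpl58, a peptidyl-tRNA hydrolase built into the large subunit, was higher by 0.21 (SE 0.05). Gadd45gip1, Aurkaip1 and the GTP-binding protein gene Dap3 were lower, with log2 fold changes of -0.37 (SE 0.07), -0.24 (SE 0.05) and -0.18 (SE 0.07).

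Among the factors that work on the ribosome, some rose and others fell. The counts of these and the next lists stand beside 21.9% of all genes called higher and 35.4% called lower. Of 15 mitochondrial translation factors 7 were higher and 2 lower, with a median of 0.19, which is 0.29 above that of all genes. The median became -0.04 with normexp correction and with the deposited series values, where the median of all genes fell as well. Mtrf1l, a release factor, rose by 0.98 (SE 0.07, limma adjusted p = 5.18e-05). Its signal was -2.64, -2.62, -2.54 and -2.53 on the NM401 arrays, against -3.61, -3.52, -3.42 and -3.69 on the control arrays. Mtres1, which rescues stalled mitochondrial ribosomes, rose by 0.66 (SE 0.07) and the initiation factor gene Mtif2 by 0.44 (SE 0.08). The elongation factor gene Tufm (-0.32, SE 0.05) and the messenger RNA stabiliser gene Lrpprc (-0.28, SE 0.06) were lower. Of 24 assembly factors 9 were higher and 9 lower, with a median of 0.09. It became -0.08 with normexp correction, which lowered the median of all genes too. Median scaling called 13 higher and 2 lower, where 35.0% of all genes were called higher and 19.3% lower. The ribosomal RNA methyltransferase gene Mrm3 was higher by 0.80 (SE 0.07) and Mterf3, known in the mouse to act in ribosome assembly, by 0.39 (SE 0.06). Rbfa, which helps to mature the small subunit, was lower (-0.54, SE 0.05), as were the pseudouridine synthase family gene Rpusd3 (-0.41, SE 0.08) and the ribosomal RNA methyltransferase gene Nsun4 (-0.37, SE 0.07). Of 19 mitochondrial aminoacyl-tRNA synthetases and their partners, which charge the transfer RNAs, 4 were higher and 7 lower, with a median of -0.19. It became 0.02 with median scaling, which moves every gene by the same amount, so it stayed at -0.09 relative to all genes. Yars2 was higher by 0.37 (SE 0.07) and Rars2 by 0.34 (SE 0.06), while Sars2 (-0.44, SE 0.06), Tars2 (-0.46, SE 0.07) and Cars2 (-1.14, SE 0.20) were lower. Cars2 gave -2.71 on NM401 replicate 1, the array on the slide of the controls, and -3.67, -3.41 and -3.46 on replicates 2 to 4. Its control arrays gave -2.19, -2.39, -2.06 and -2.03.

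Of 13 genes that copy and transcribe mitochondrial DNA, 4 were higher and 5 lower. With median scaling 8 were higher and 2 lower, where 35.0% of all genes were called higher and 19.3% lower. Tfam, which packs mitochondrial DNA and starts its transcription, had a signal of 0.45, 0.33, 0.37 and 0.36 on the NM401 arrays, against -0.13, -0.03, 0.00 and -0.17 on the control arrays, a log2 fold change of 0.46 (SE 0.06, limma adjusted p = 0.000443). Polg, the catalytic subunit of the mitochondrial DNA polymerase, had -0.67, -0.81, -0.68 and -1.01 on the NM401 arrays, against 0.57, 0.47, 0.67 and 0.59 on the control arrays. The log2 fold change of Polg was -1.37 (SE 0.09, limma adjusted p = 4.19e-05), and neither gene's groups overlapped. Of 8 nuclear regulators of mitochondrial genes 6 were higher (21.9% of all genes) and 0 lower (35.4% of all genes), with a median of 0.34. The limma count of lower genes was 0 at an unadjusted p below 0.05 too, in the fit over all 8 arrays. Only NM401 replicate 1 shared the slide of the controls, so a count within that slide would rest on this array alone. Normexp correction called 4 higher and 1 lower, where 15.7% of all genes were called higher and 53.9% lower. Myc rose by 0.81 (SE 0.14), the coactivator gene Pprc1 by 0.55 (SE 0.09) and the nuclear receptor gene Esrra by 0.32 (SE 0.05).

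Cytosolic ribosomal proteins, which build the ribosome that makes the mitochondrial ones, had 5 of 83 higher and 57 lower, with a median of -0.27. That balance turned with quantile normalisation, where 32 were higher and 16 lower, with a median of 0.08. Of all genes, 27.4% were called higher and 27.9% lower in that setting. Respiratory chain and ATP synthase genes, with their assembly factors, had 15 of 87 higher and 44 lower, with a median of -0.21. With median scaling 22 were higher and 20 lower (median -0.0047), where 35.0% of all genes were called higher and 19.3% lower. Median scaling moves every gene by the same amount, so the median of this list stayed at -0.11 relative to all genes. With quantile normalisation 24 were higher and 26 lower (median -0.02), where the shares of all genes were 27.4% and 27.9%. Differences between these groups and the mitochondrial ribosomal protein genes are descriptions and were not tested.

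**Figure D4:**
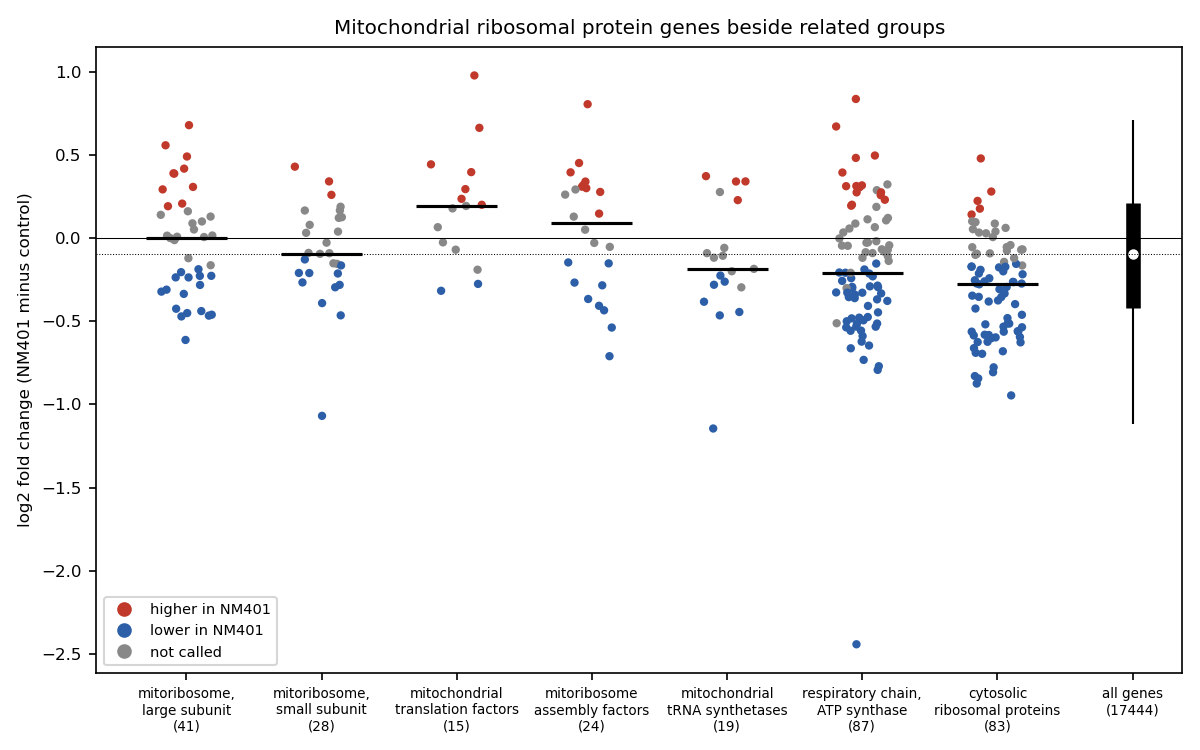
Log2 fold change (NM401 minus control, y axis) of each gene tested, by group of genes (x axis, number of genes in brackets), with colours for the limma call and a bar for each median; for all genes, the point is the median, the thick line the 25th to 75th percentile and the thin line the 5th to 95th. The dotted line marks the median of all genes, -0.10; the medians are -0.00052 for the large subunit, -0.09 for the small subunit and -0.27 for cytosolic ribosomal proteins.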

How the data were processed

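The deposited scanner files hold an intensity for each spot, made with Agilent Feature Extraction (version 11.0.1.1 per the submitters' processing notes), with background subtracted and spatial trends removed within arrays and no scaling between them, per the file headers. Their deposited series table held the median pixel intensity of each spot and was used as an alternative. Probe positions follow build rn4, which the file headers name.

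The deposited processed intensity was put on the log2 scale minus the array's 75th percentile over non-control spots. Spots marked as outliers were left out and the spots of a probe averaged. Probes that 4 or more of the 8 arrays showed well above background (21684) entered a limma fit (version 3.58.1, lmFit then eBayes, no covariate, two-sided tests) in R 4.3.3 with the data.table package (version 1.17.8), with Benjamini-Hochberg adjustment over all of them. A gene was represented by its brightest tested probe (mean over 8 arrays). Log2 fold changes are NM401 minus control, and the number of arrays limits their precision. The fit was tested on simulated data. Of the 90 member probes, 85 were matched by accession to RefSeq. Nothing in the deposited files gives the sampling depth behind an intensity.

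The members and the lists were chosen with earlier results of these data known. The rule named, per subunit and direction, up to 6 called genes with the largest differences, genes with conflicting probes and the 3 smallest differences, and in other lists up to 3 called genes per direction by p. Probe pairs, neighbours and other members were chosen after their values were seen. Ribosomal protein S6 kinases were left out of the cytosolic list. Replicate numbers are shared by both groups in the labels but correlated at 0.19, -0.0028, 0.08 and -0.07, so they were not taken as pairs.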

Additional observations from a re-analysis of the deposited data

Results flagged for a closer look

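In 4 of 64 sets of 4 arrays tested, 1 array lay far from the other 3, with a gap above 0.829 of the whole range (Dixon's critical value for 4 samples). Chance flags about 1 set in 20. Mrps17 in NM401 cells had a gap of 0.874 of the range, with NM401 replicate 1 at 0.91 and the others at 0.67 to 0.70. Without that array Mrps17 was still called lower, whereas in the comparison within its slide, which rests on it, Mrps17 was not. Mrpl32 in NM401 cells had a gap of 0.907, with NM401 replicate 2 at 1.67 and the others at 1.71 to 1.72. Mrps35 in control cells had a gap of 0.913, with control replicate 3 at 1.99 and the others at 1.83 to 1.85. Mrps5 in control cells had a gap of 0.911, with control replicate 4 at -2.38 and the others at -2.23 to -2.21.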

How the results depend on the processing

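Median scaling called 27 members higher and 9 lower, 18 and 7 in the large and 9 and 2 in the small subunit, and turned the medians positive (0.11, 0.20 and 0.11). Quantile normalisation turned the medians of all members (0.012) and the large subunit (0.052) positive and gave -0.045 for the small subunit, where it called 5 higher. With slide as a block, 8 were higher and 16 lower (large subunit 6 and 11, small subunit 5 lower). Within slide 1, limma called 3 and 1 (large 2 and 1, small 1 and 0; at an unadjusted p below 0.05, 4 of the small subunit were lower). Both gave medians of -0.049, -0.036 and -0.052 for all members, the large and the small subunit. With no filter on dim probes 6 small subunit genes were lower. The fit with the replicate block, whose pairing the correlations did not bear out, called 12 members higher and 24 lower, with 7 lower in the small subunit.

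The share of all genes called is not given for fits without 1 replicate, with the replicate block or with no filter on dim probes. Counts from those fits therefore do not set the members apart from all genes. Leaving out 1 replicate at a time gave 12 to 15 members higher and 24 to 29 lower. The large subunit had 9 to 12 higher and 17 lower, and the small subunit 3 to 5 and 7 to 12. The medians were -0.10 to -0.025, -0.021 to 0.00057 and -0.13 to -0.075. Without NM401 replicate 2 the large subunit median was 0.00057 and 7 small subunit genes were lower. Without control replicate 3, 5 small subunit genes were higher. The median of all members was -0.040 without NM401 replicate 4 and -0.025 without control replicate 2, and that of the small subunit was -0.13 without control replicate 1. Leaving out the 3 probes that recur in promoters, an alternative chosen after seeing the data, gave 13 higher and 26 lower of 67, a median of -0.013, a large subunit median turned to 0.0068, and Mrpl17 turned to 0.050 on its other probe. Of the 27 named members, 17 lost their call within slide 1, 3 with slide as a block and 4 with median scaling, all with the same sign, and none lost it without any 1 array. The 27 include the 3 smallest differences of each subunit, which were not called in the main fit and had no call to lose. All losses therefore fell among the remaining named members, those with the largest differences. The causes were not tested, and the fit within slide 1 also rests on fewer arrays.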
